A study of Mus musculus with 2 samples.

Results

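Integrins are the receptors by which cells hold on to the matrix around them, and laminins are the matrix proteins that form the sheet-like core of basement membranes. The rows examined were the protein-coding genes whose symbols name an integrin alpha chain, an integrin beta chain or a laminin alpha, beta or gamma chain, with Itga2b, the platelet alpha chain, left out. They came to 36 of the 37620 gene rows in the tables: 17 integrin alpha, 8 integrin beta, 5 laminin alpha, 3 laminin beta and 3 laminin gamma chains. RNA sequencing had been done on 2 libraries of mouse heart at embryonic day 12.5, replicate 1 and replicate 2, on a mixed C57BL/6 x 129S6 background, and no treatment is named. Both libraries belong to 1 group, so there was no comparison between conditions, and the labels leave it unsaid whether each was made from its own embryo or pool. What is given as spread between replicates may thus be only technical.

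An integrin is a dimer of 1 alpha and 1 beta chain. The alpha chain largely sets the ligand (laminin, collagen, or proteins with the Arg-Gly-Asp motif such as fibronectin and vitronectin), and the beta chain links to the actin cytoskeleton through talin and kindlin. A laminin is a trimer of 1 alpha, 1 beta and 1 gamma chain, named by the numbers of its chains, and it is laid down around cardiomyocytes, under the endocardium and vessel endothelium, and under the epicardium. Embryos that lack fibronectin or its receptor chain Itga5 fail early with defects of heart and vessels, and those that lack Itga4 lose the epicardium.

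Levels are FPKM (fragments scaled by transcript length and by the library's mapped fragments). This unit is meant to let chains of different length be set side by side, but how well it does so was not tested. Means are given ± SD over the 2 libraries (n = 2). Absolute depth is unknown. Of 2881 genes under 0.1 FPKM and above 0 in both libraries, 468 lay within 0.05 log2 units of the most frequent ratio of replicate 2 to replicate 1, 1.33, the ratio that 1 fragment in each library would give if replicate 2 were the shallower. All 8 cardiomyocyte markers reached 1 FPKM in both libraries, led by Actc1, the cardiac actin, at 4314 ± 98.4 FPKM. So did all 7 endothelial markers (median 31.0 FPKM) and all 5 epicardial markers (median 19.8 FPKM). In tissue RNA of this kind, fewer cells of a type and less RNA per cell cannot be told apart.

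Of the 36 chains, 19 reached 1 FPKM in both libraries, which is 52.8%, beside 52.4% of the 22240 protein-coding symbols. At this limit the share was near that of protein-coding genes as a whole, as it was at 5 FPKM (38.9% beside 38.4%). At 0.5 FPKM it was 66.7% (24 of the 36 chains) beside 56.3%. The median level of the chains was 3.06 FPKM, against 1.67 FPKM for all protein-coding symbols. The chains reaching 1 FPKM in both libraries were 8 of the 17 integrin alpha, 4 of the 8 integrin beta, 3 of the 5 laminin alpha and 2 of the 3 laminin beta chains, with laminin gamma chains making up the rest. Itga2 crossed the limit in replicate 1 alone, and the other 16 chains lay under it in both libraries. None of the 36 was listed at 0 in either library. Within each kind of chain 1 gene stood well above the rest.

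**Figure D1:**
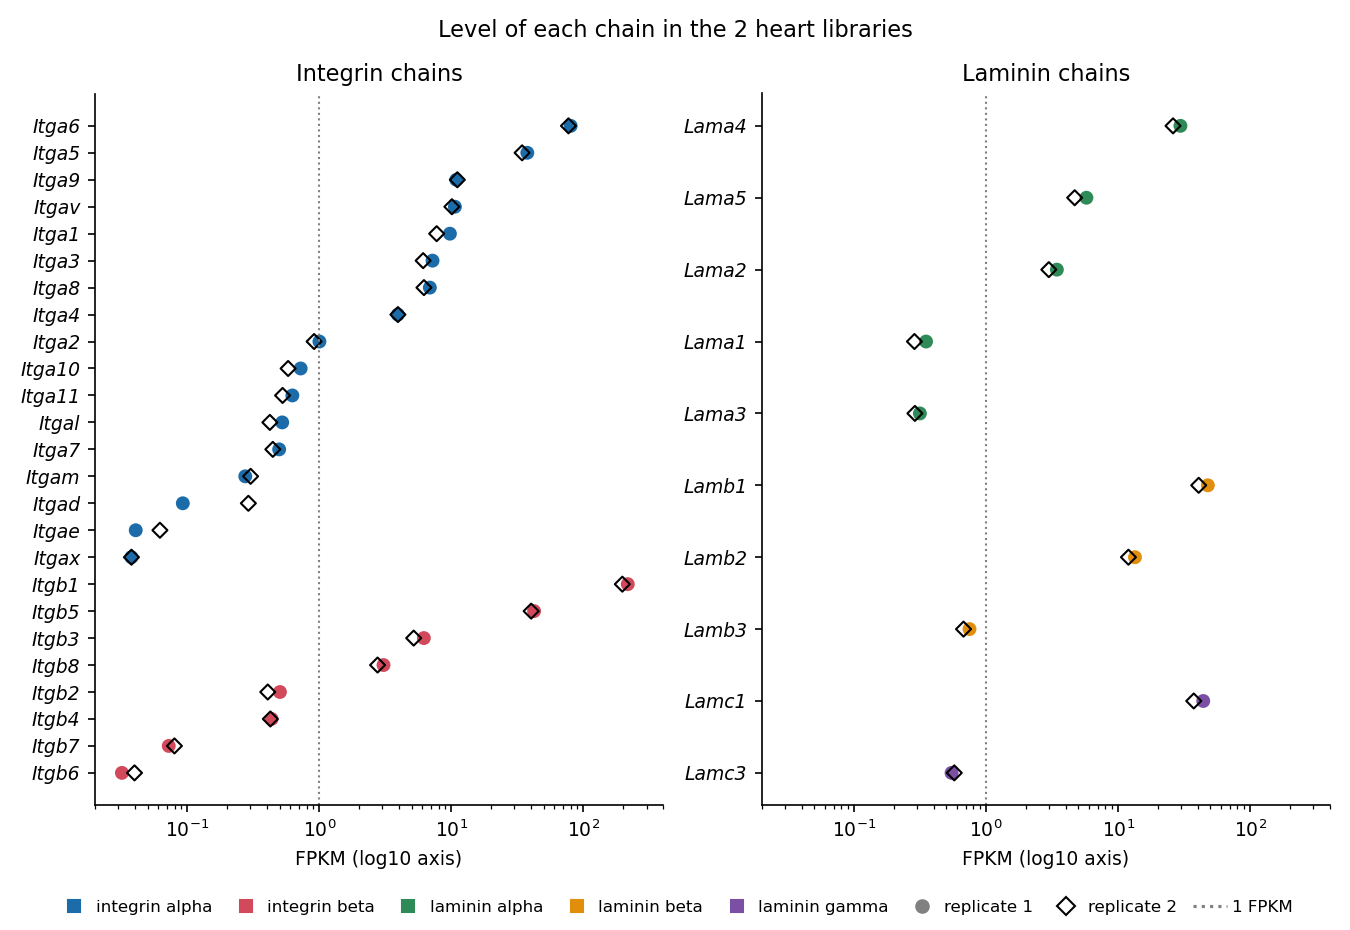
FPKM of 35 integrin and laminin chains (log10 axis) in replicate 1 (filled circles, coloured by kind of chain) and replicate 2 (open diamonds), in order of mean level within each kind; the dotted line is 1 FPKM. Itgb1 stood highest at 216 FPKM in replicate 1 and 197 FPKM in replicate 2, and the symbols of the 2 libraries lie close together for the chains shown except Itgad and, by a smaller step, Itgae.

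Among integrin beta chains, Itgb1, the beta chain of most matrix receptors, dominated. It was at 216 FPKM in replicate 1 and 197 FPKM in replicate 2 (206.6 ± 13.9), above 99.1% of protein-coding symbols in both. Itgb5, which pairs with the alpha v chain to bind vitronectin, followed at 42.3 and 40.2 FPKM (41.2 ± 1.48). These 2 chains stood far above the others of their kind. Itgb3, the partner of the alpha v and platelet alpha chains, was at 6.18 and 5.18 FPKM, and Itgb8, whose dimer with alpha v binds latent TGF-beta, was at 3.06 and 2.76 FPKM. Itgb2, the leukocyte beta chain, was at 0.503 and 0.407 FPKM. Itgb4, the hemidesmosome chain of epithelia, was at 0.435 and 0.425 FPKM. Below these were Itgb7, of lymphocytes, at 0.0761 ± 0.00531 FPKM and Itgb6, of epithelia, at 0.0359 ± 0.00555 FPKM. Itgb1 made up 80.5% of the summed beta chain FPKM in replicate 1 and 80.1% in replicate 2.

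The windows before the starts of the highest and the lowest beta chain for which the RefSeq table gives 1 start, found in a GENCODE transcript, are shown for their content of CpG dinucleotides, the site of DNA methylation in mammals. They span 250 bases on GRCm38.p6, at chr8:128685404-128685653, strand + for Itgb1 and at chr15:102231936-102232185, strand - for Itgb7, written 5′ to 3′ on the strand of the gene, with each CpG in capitals.
Itgb1: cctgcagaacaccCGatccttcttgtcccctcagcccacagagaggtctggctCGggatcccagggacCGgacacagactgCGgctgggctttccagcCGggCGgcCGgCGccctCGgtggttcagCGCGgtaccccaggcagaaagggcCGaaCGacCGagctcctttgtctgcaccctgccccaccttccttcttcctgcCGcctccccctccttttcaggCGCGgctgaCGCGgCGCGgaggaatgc
Itgb7: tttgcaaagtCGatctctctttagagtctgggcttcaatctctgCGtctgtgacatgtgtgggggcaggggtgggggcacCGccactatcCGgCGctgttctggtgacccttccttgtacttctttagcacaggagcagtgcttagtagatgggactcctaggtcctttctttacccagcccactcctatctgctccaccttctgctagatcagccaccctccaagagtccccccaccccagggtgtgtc
The window of Itgb1 holds 21 CpG and has 68.0% G and C, against 5 CpG and 56.0% for Itgb7.

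Among alpha chains the order was led by Itga6, a laminin-binding chain, at 80.0 FPKM in replicate 1 and 77.0 FPKM in replicate 2 (78.5 ± 2.14). Itga5, the alpha chain of the main fibronectin receptor, was second at 37.5 and 34.3 FPKM (35.9 ± 2.31). In both libraries these 2 lay clearly above every other alpha chain. Itga9, whose ligands include tenascin-C and VCAM1, was at 10.9 and 11.1 FPKM. Itgav, the alpha v chain, was at 10.6 and 10.1 FPKM. Itga1, a collagen-binding chain, was at 9.73 and 7.73 FPKM, the largest relative gap between the libraries among the 8 alpha chains over 1 FPKM. Itga3, a laminin-binding chain of epithelia, was at 7.19 and 6.11 FPKM, and Itga8, the receptor chain for nephronectin, was at 6.86 and 6.19 FPKM. Itga4, which binds VCAM1 and fibronectin, was at 3.93 FPKM in both libraries.

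Itga7 and the 3 collagen-binding chains other than Itga1 were near the limit or under it. Itga7, the laminin-binding chain known from adult skeletal and cardiac muscle, was at 0.496 FPKM in replicate 1 and 0.444 FPKM in replicate 2, so that Itga6 was 161 times as high in replicate 1 and 173 times in replicate 2. Itga2, a collagen receptor chain of platelets and epithelia, was at 1.001 and 0.912 FPKM. Itga10, known from cartilage, was at 0.721 and 0.580 FPKM, and Itga11, a fibroblast receptor for fibrillar collagen, was at 0.624 and 0.527 FPKM.

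Grouped by ligand, the 3 laminin-binding chains (Itga3, Itga6 and Itga7) held 51.4% of the summed alpha chain FPKM in replicate 1 and 52.2% in replicate 2. The 3 chains that bind the Arg-Gly-Asp motif (Itga5, Itga8 and Itgav) held 32.3% and 31.6%. Itga4 and Itga9 together held 8.68% and 9.39%, and the 4 collagen-binding chains held 7.08% and 6.09%. The 5 leukocyte chains held 0.568% and 0.696%. The order of the 5 groups by share was the same in both libraries. Itga6 by itself held 46.9% and 48.1%.

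**Figure D2:**
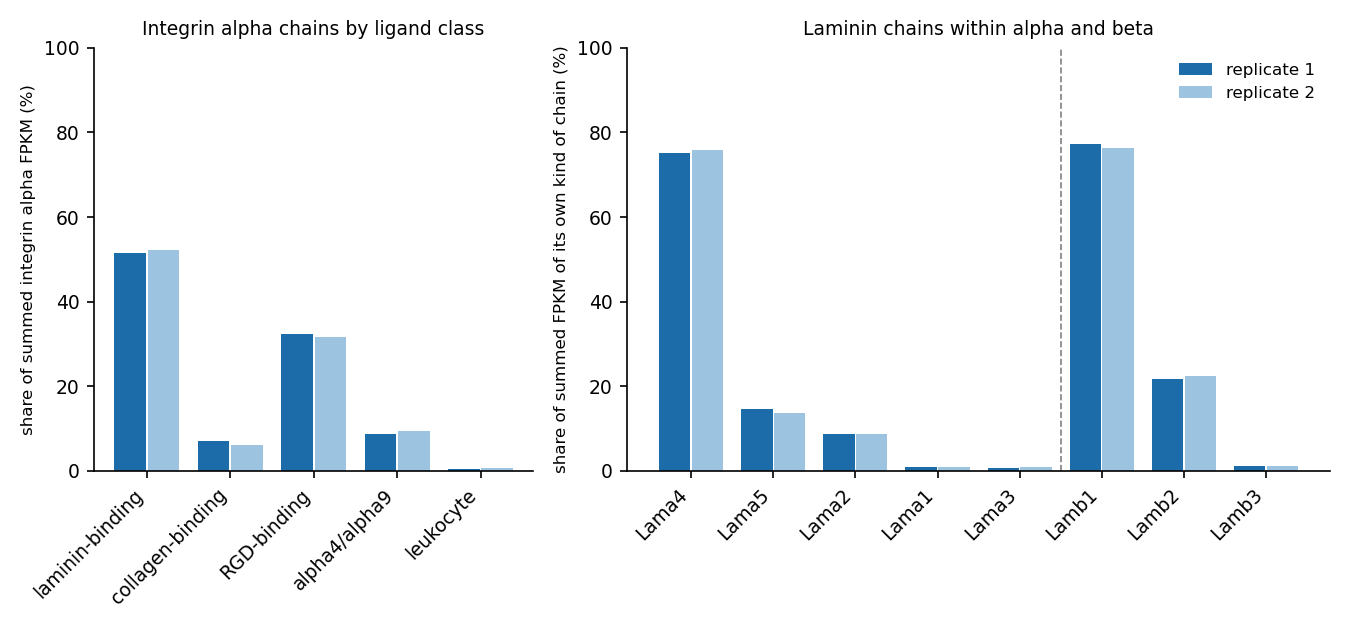
Left, share of the summed integrin alpha FPKM held by each ligand class; right, share of each laminin chain in the summed FPKM of its own kind (alpha and beta, split by a dashed line), both in percent with 1 bar per library. Laminin-binding chains held 51.4% and 52.2% of alpha chain FPKM, and Lama4 and Lamb1 each held more than the other chains of their kind together.

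The 5 leukocyte alpha chains were all under 1 FPKM. Itgal, the LFA-1 alpha chain, was at 0.523 FPKM in replicate 1 and 0.422 FPKM in replicate 2, and Itgam, the alpha chain of Mac-1 on myeloid cells, was at 0.275 and 0.301 FPKM. Itgax, a chain of dendritic cells and macrophages, was at 0.0377 FPKM in both libraries. Of 12 leukocyte and macrophage markers, 10 reached 1 FPKM in both libraries, with a summed level of 54.6 FPKM in replicate 1 and 52.1 FPKM in replicate 2. Lyz2, a lysozyme of myeloid cells, led them at 21.7 ± 0.805 FPKM, while Ptprc, the pan-leukocyte CD45, was at 0.191 ± 0.0262 FPKM. Of 6 lymphocyte markers none reached the limit, and Cd3d and Ms4a1 were listed at 0. None of 7 epithelial markers reached it either, with Cdh1, E-cadherin, at 0.0166 ± 0.00762 FPKM and a summed level of 1.59 and 1.501 FPKM. The part of these cells in the levels of the chains was not tested.

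Itgad, a myeloid alpha chain, was at 0.0924 FPKM in replicate 1 and 0.290 FPKM in replicate 2, and its row spans that of Cox6a2, a heart and muscle cytochrome oxidase subunit on the opposite strand, over 931 bases. Cox6a2 was at 151 and 146 FPKM. Itgae, of mucosal lymphocytes, was at 0.0407 and 0.0620 FPKM and spans Gsg2, a mitotic histone kinase, at 3.97 and 3.81 FPKM. Itga1 holds the whole of Pelo, a ribosome rescue factor on the same strand, at 22.1 and 21.7 FPKM. Itga9 spans the pseudogene Gm10157, at 2.22 and 1.55 FPKM. They were among the 5 chains overlapped by a row with a mean of 1 FPKM or more, of 16 overlapped by any row. The same shares over all genes were not taken. Reads of genes that overlap on the same strand, as Pelo and Itga1 do, cannot be told apart there by strand, nor can those on opposite strands where counting did not use strand, which is not stated. The levels of the 5 chains are uncertain to that extent. Matches of 98% identity over at least 75 bases to another gene were found for 12 of the 36 chains, and the share over all genes was not taken. Not all are copies elsewhere: Cerkl, E030013I19Rik, B230344G16Rik and Gm13441 overlap the chains they match, Itga4, Itga8, Itgb4 and Lamc3, on the chromosome. Other matches were processed pseudogenes for Itga6 (326 bases), Itgb5 (343 bases) and Itgad (225 bases). Itgam shared 3454 bases with Gm49368, a symbol with no level here.

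Of the laminin alpha chains, Lama4, the chain of endothelial basement membranes, was highest at 29.6 FPKM in replicate 1 and 26.02 FPKM in replicate 2 (27.8 ± 2.54). Lama5, found under many epithelia and endothelia, was at 5.75 and 4.68 FPKM, and Lama2, the chain of muscle basement membranes, at 3.43 and 2.98 FPKM. Both were well under Lama4 in each library. Lama1, a chain of the early embryo, was at 0.351 and 0.287 FPKM, and Lama3, of epithelial laminin, at 0.315 and 0.289 FPKM. Lama4 held 75.05% of the summed laminin alpha FPKM in replicate 1 and 75.9% in replicate 2.

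Lamb1, the widespread beta chain, was at 47.7 FPKM in replicate 1 and 40.7 FPKM in replicate 2 (44.2 ± 4.98), above 94.3% and 93.1% of protein-coding symbols. Lamb2, the beta chain of the neuromuscular junction and kidney filter, was at 13.4 and 12.0 FPKM. Lamb3, a chain of epithelial laminin, was at 0.748 and 0.674 FPKM. Of the gamma chains, Lamc1, present in most laminins, was at 44.1 and 37.3 FPKM (40.7 ± 4.74). Lamc3 was at 0.547 and 0.574 FPKM. Lamb1 held 77.1% and 76.3% of the beta chain FPKM.

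The same windows are shown for all 3 laminin chains that had 1 RefSeq start found in a GENCODE transcript. They lie at chr2:180225860-180226109, strand - for Lama5, at chr12:31265043-31265292, strand + for Lamb1 and at chr9:108479612-108479861, strand + for Lamb2 on GRCm38.p6, again with each CpG in capitals.
Lama5: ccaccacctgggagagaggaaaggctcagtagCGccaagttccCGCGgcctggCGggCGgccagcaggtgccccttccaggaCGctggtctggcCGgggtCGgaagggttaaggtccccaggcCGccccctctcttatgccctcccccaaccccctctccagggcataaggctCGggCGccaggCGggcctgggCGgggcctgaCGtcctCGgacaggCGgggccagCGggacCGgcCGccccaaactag
Lamb1: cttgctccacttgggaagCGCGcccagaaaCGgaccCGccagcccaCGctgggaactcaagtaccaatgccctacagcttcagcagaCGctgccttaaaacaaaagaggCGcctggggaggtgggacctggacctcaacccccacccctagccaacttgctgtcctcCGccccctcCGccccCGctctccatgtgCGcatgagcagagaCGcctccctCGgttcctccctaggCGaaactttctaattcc
Lamb2: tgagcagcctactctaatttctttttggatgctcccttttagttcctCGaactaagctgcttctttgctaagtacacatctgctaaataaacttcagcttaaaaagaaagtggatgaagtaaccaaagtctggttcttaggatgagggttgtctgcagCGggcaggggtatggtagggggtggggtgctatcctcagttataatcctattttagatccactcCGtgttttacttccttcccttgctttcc
The windows hold 19, 14 and 3 CpG in that order, which is not the order of the levels, since Lama5 was the lowest of the 3 chains.

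Related chains were compared by the log2 ratio of their FPKM after adding 1 FPKM, which shrinks the ratios of low chains. The yardstick was 0.32 log2 units, below which 95% of 12637 single genes fell when replicate 2 was set against replicate 1. It measures how well the same gene repeats between the libraries. Errors tied to a gene, if alike in both libraries, are not in it. With 2 libraries in 1 group an exact sign-flip test cannot go below a two-sided p of 0.5, so no p-value is given. By the mean of the 2 libraries, 22 of 26 pairs differed by more than the yardstick, each with the first-named chain higher, and 4 did not. The pairs and their order were set with earlier results of these data known, so the count and its direction are no test. The share of other gene pairs beyond the yardstick was not taken. Itgb1 exceeded Itgb5 by 2.30 ± 0.05 and Itgb5 exceeded Itgb3 by 2.66 ± 0.10 log2 units. Itga6 exceeded Itga3 by 3.38 ± 0.11, and Itga5 exceeded Itgav by 1.70 ± 0.04 and Itga4 by 2.90 ± 0.09. Itga1 exceeded its chromosomal neighbour Itga2 by 2.31 ± 0.16, and Itgav exceeded Itga8 by 0.59 ± 0.04.

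Among laminins, Lama4 exceeded Lama5 by 2.22 ± 0.05 and Lama2 by 2.77 ± 0.02 log2 units. Lama2 exceeded Lama1 by 1.67 ± 0.06. Lamb1 exceeded Lamb2 by 1.72 ± 0.05, and Lamc1 exceeded Lamc3 by 4.74 ± 0.18. Lamc1 and Lamb1, which join in the same trimers, differed by -0.12 ± 0.01, within the yardstick, with Lamc1 the lower in both libraries. The other pairs within it were Itga11 against Itga10 at -0.07 ± 0.02, Itgam against Itgal at -0.19 ± 0.09 and Itgam against Itgax at 0.31 ± 0.02. All 3 pairs lie under 1 FPKM, where the added 1 FPKM weighs most. With 0.1 FPKM added the last 2 passed the yardstick of that scale by their mean, at -0.56 ± 0.25 and 1.49 ± 0.07 against 0.42. Both yardsticks come from genes averaging at least 1 FPKM, so they do not measure the spread at these levels. For Itgam against Itgal the SD also reaches back inside 0.42.

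**Figure D3:**
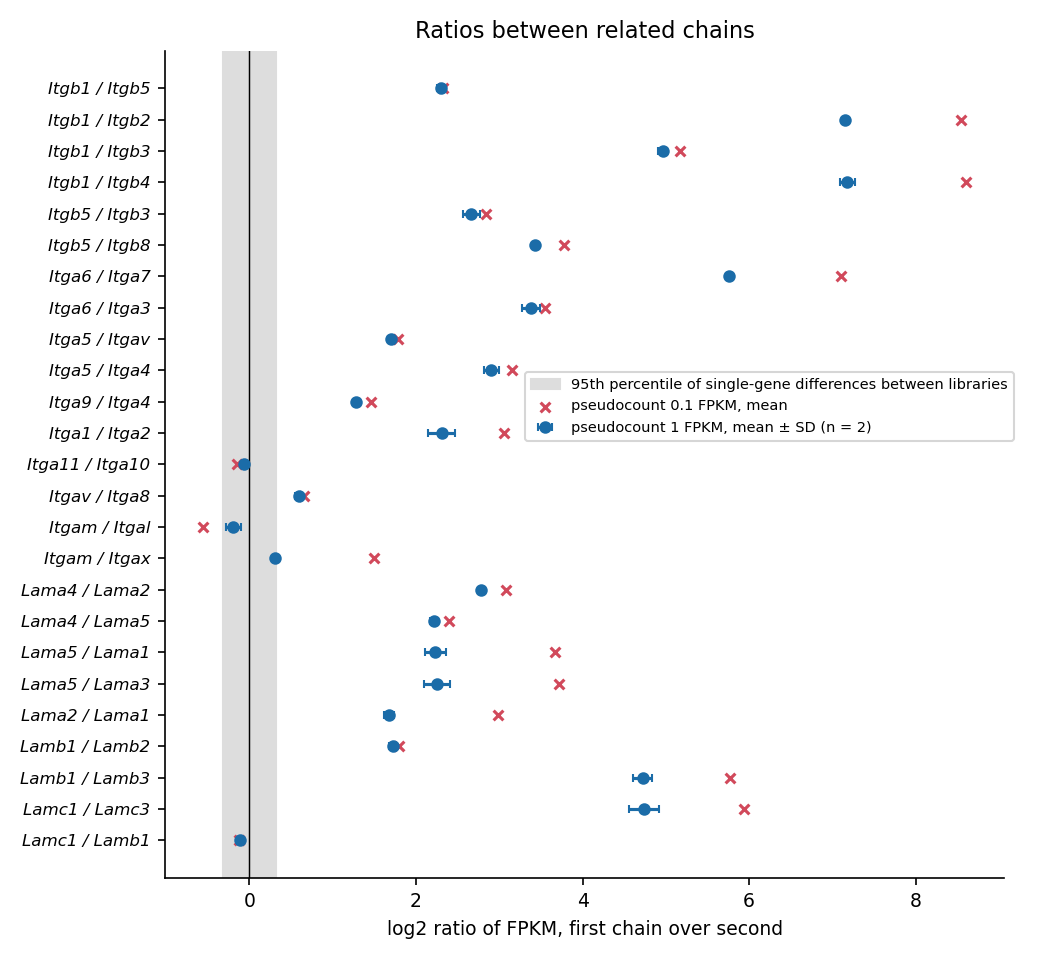
Log2 ratio of the first chain over the second for 25 of the 26 pairs, as mean ± SD of 2 libraries with 1 FPKM added (circles) and as the mean with 0.1 FPKM added (crosses); the grey band spans 0.32 log2 units on either side of 0, the 95th percentile of single-gene differences between the libraries with 1 FPKM added. With 1 FPKM added, 21 of the pairs shown lie outside the band and 4 inside it.

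For the full order of the chains a stricter rule than for the pairs was used, with the yardstick to be passed in both libraries. By it, 16 of the 31 neighbours within a kind of chain were separated. All neighbours among laminin beta chains were separated, and among laminin alpha chains only Lama1 and Lama3 were not. Between Itga9, Itgav, Itga1, Itga3 and Itga8 no neighbour was separated from the next, though Itga1 exceeded Itga3 by 0.34 on average (0.39 in replicate 1, 0.30 in replicate 2). From Itga2 downward no neighbour among the alpha chains was separated either. Among beta chains, Itgb2 was not separated from Itgb4 nor Itgb7 from Itgb6. The alpha chains from Itga2 down, these 4 beta chains, Lama1 and Lama3 all average under 1 FPKM, where the added 1 FPKM shrinks ratios. Lack of separation there does not show like levels. In replicate 2, Itgad at 0.290 FPKM and Itgae at 0.0620 FPKM differed by only 0.28 log2 units on this scale.

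The levels were also read against the dimers and trimers the chains are known to form. Of 23 known dimers of these chains, 11 had both chains at 1 FPKM or more in both libraries, and 8 of those contain Itgb1. The 12 alpha partners of Itgb1 summed to 169.6 FPKM in replicate 1 and 159 FPKM in replicate 2, which is 0.784 and 0.807 times the level of Itgb1. In each of the 8 dimers the alpha chain was the lower of the pair by mean FPKM, which follows from Itgb1 being the highest of all the chains. With Itgb5 the lower chain was Itgav, and with Itgb3 and Itgb8 it was the beta chain. The other dimer of Itga6, with Itgb4, paired 78.5 FPKM of Itga6 with 0.430 FPKM of Itgb4.

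Of 14 known laminin trimers, 6 had all chains at 1 FPKM or more in both libraries: 211, 221, 411, 421, 511 and 521. In 5 of these 6 the alpha chain was the lowest of the 3 in both libraries. Lamc1 is in all 6, and each of the 3 alpha chains enters with both Lamb1 and Lamb2, so the count repeats the same few levels. The exception was 421, in which Lamb2, at 12.7 FPKM, was the lowest chain, under Lama4 at 27.8 FPKM. The summed alpha chains came to 39.5 FPKM in replicate 1 and 34.3 FPKM in replicate 2. The beta chains came to 61.9 and 53.3 FPKM. Transcript levels do not give the amounts of assembled protein.

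Most of the listed genes that work with these chains were at 1 FPKM or more in both libraries, beside 52.4% of protein-coding symbols. The lists were chosen with earlier results of these data known, so their counts are no test. Of 13 basement membrane partners 11 reached 1 FPKM in both libraries, and the median level of the 13 was 26.9 FPKM. The highest were Col18a1, the collagen that yields endostatin, at 70.9 ± 3.18 and Col4a1 at 67.5 ± 8.91 FPKM, and the collagen chains Col4a3 and Col4a4 were at 0.110 ± 0.00368 and 0.219 ± 0.00225 FPKM. All 7 other laminin receptors reached the limit. Bcam, which binds Lama5, was at 109 ± 4.79, Mcam, which binds laminins with Lama4, at 91.8 ± 3.76 and Dag1, dystroglycan, at 80.2 FPKM.

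Of 17 integrin ligands outside the laminins 14 reached 1 FPKM in both libraries, led by Postn, periostin of the cushions, at 113 ± 4.02 FPKM. Fn1, fibronectin, the ligand of the Itga5 dimer, was at 65.4 FPKM in replicate 1 and 52.1 FPKM in replicate 2, and Vtn, vitronectin, was at 0.0396 ± 0.0208 FPKM. Of 24 adhesion adaptors 22 reached the limit, with Ilk, the integrin-linked pseudokinase, at 123 ± 3.65 FPKM and the kindlin Fermt2 at 77.8 ± 1.99 FPKM. The epithelial kindlin Fermt1 was at 0.00745 ± 0.000786 FPKM. All 6 membrane partners reached it, led by the tetraspanin Cd81 at 264 ± 4.61 FPKM.

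Differences between the libraries were small in size but mostly in 1 direction. None of the 15 chains averaging at least 5 FPKM differed 2-fold or more, beside 0.347% of the 8924 symbols at that level, and none of the 19 averaging at least 1 FPKM did, beside 0.736% of 12637 symbols. None of those 19 passed 0.32 log2 units either, beside 222 of the 11757 protein-coding symbols at that mean. Few genes of any kind passed it, so this does not set the chains apart. The differences of the 19 chains, replicate 2 over replicate 1, ran from -0.30 (Itga1) to 0.02 (Itga9). Their median was -0.14, beside -0.04 over the protein-coding symbols at that mean. Of the 19, 17 were lower in replicate 2, which is 89.5%, beside 69.3% of 11757 protein-coding symbols. All 7 laminin chains among them were lower, with Lama5 at -0.25, Lamc1 at -0.23 and Lamb1 at -0.22. Itgb3, the partner of the platelet alpha chain, was at -0.22, and 7 megakaryocyte and platelet markers, of which 4 reached 1 FPKM in both libraries, summed to 21.5 FPKM in replicate 2 and 28.2 FPKM in replicate 1. Their part in the level of Itgb3 was not tested.

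Over all protein-coding genes, transcript length moved with this difference. The longest coding transcript of the chains had a median of 5426 bases, and among genes averaging at least 1 FPKM it was 5812 bases for the chains, against 3203 bases for protein-coding genes. Of all protein-coding genes with 6000 bases or more, 88.2% were lower in replicate 2, with a median of -0.10, against 62.1% and -0.03 for those under 2000 bases. In the same class of 6000 bases or more, 7 of 9 chains were lower, with a median of -0.15. In that of 4000 to 6000 bases 8 of 8 were lower, beside 75.4% of all genes there, with a median of -0.14 beside -0.05. In that of 2000 to 4000 bases 2 of 2 were lower, beside 64.8%, with a median of -0.10 beside -0.03. The median of the chains was below that of all genes in each of these 3 classes, 1 of which holds only 2 chains. In the longest class, however, a smaller share of the chains than of all genes was lower in replicate 2 (7 of 9 beside 88.2%). The median was -0.15 for chains of 6000 bases or more and -0.13 for shorter ones. The part of transcript length in the difference was not tested.

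**Figure D4:**
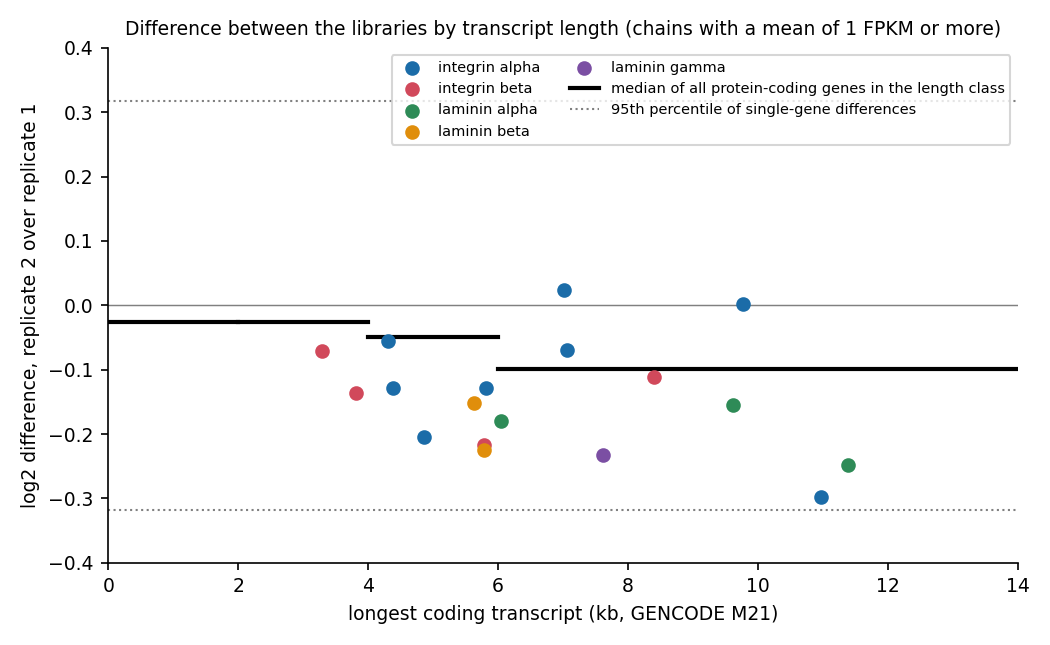
Log2 difference of replicate 2 over replicate 1 (1 FPKM added) of 18 of the 19 chains averaging at least 1 FPKM against the length of the longest coding transcript in kb; black lines give the median of all protein-coding genes per length class, and dotted lines the 95th percentile of single-gene differences, 0.32 log2 units in either direction. The black lines lie lower for the classes from 4 kb up, and 16 of the 18 chains shown lie under 0.

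The 36 chains lie on 14 chromosomes, with 7 on chromosome 2 (positions on mm9, as in the files). Itga2 (chromosome 13, 115626124 to 115722249) and Itga1 (115748287 to 115892172) lie 26037 bases apart with no protein-coding row between them, and Itga1 was 9.73 times Itga2 in replicate 1 and 8.47 times in replicate 2. Itgam, Itgax and Itgad are a cluster on chromosome 7 with gaps of 1.39 and 3.72 kb, and all 3 were under 1 FPKM in both libraries. Itgb1 is on chromosome 8 (131209554 to 131257100) and Itga6 on chromosome 2 (71583673 to 71696473).

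In the windows of 250 bases before the start, taken from RefSeq on GRCm38.p6, 22 of the 36 chains had an entry and 19 of them had exactly 1. The 13 of these 19 chains that reached 1 FPKM in both libraries had a median of 12 CpG, from 0 to 21, against a median of 5.5, from 2 to 12, in the 6 that did not, and the ranges overlap. The median of all 32851 windows was 6. The 50 bases after the start were found in a GENCODE transcript for 21 of the 25 windows of the chains, and not for Itga4, Itga5, Itga8 and Lama2, the last of which has the 0. Itgb1, whose window is printed above, had the most CpG of the 19 and also the highest level, but Lamb2, at 12.7 FPKM, had 3 CpG and Itga11, at 0.575 FPKM, had 12. Spearman's rho of CpG count and mean FPKM over the 19 chains was 0.51, a description over genes that share the same 2 libraries. The letters GGGCGG, the core of a GC box, searched on both strands, were in 6 of the 13 windows and in 1 of the 6, against 32.7% of all windows. CCAAT was in 2 of the 13 and 1 of the 6, against 33.8% of all windows, and TATAAA in none of the 19, against 12.4%.

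**Figure D5:**
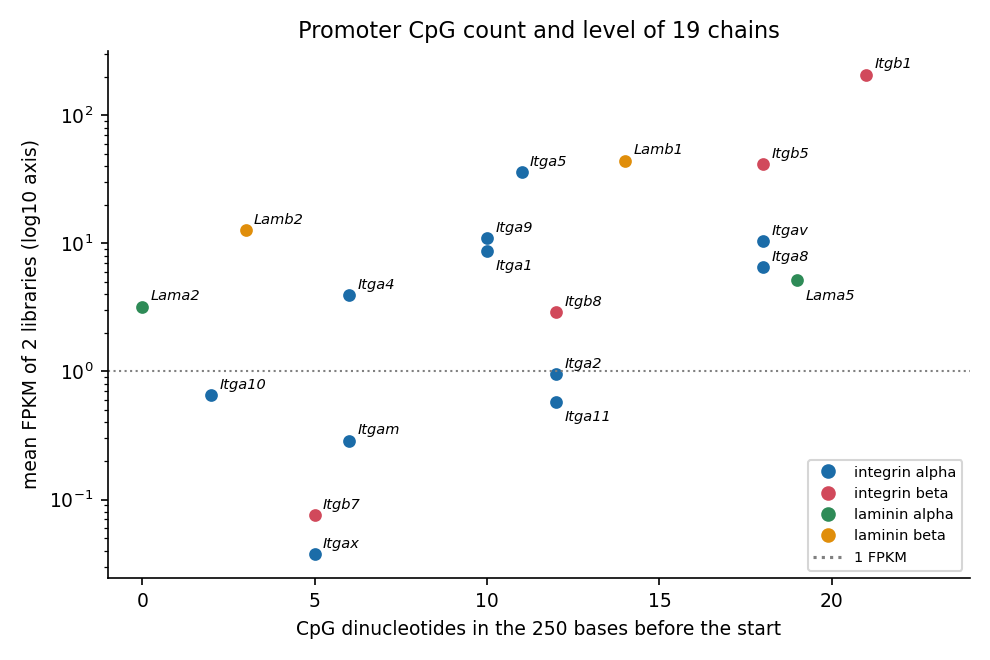
Mean FPKM of 2 libraries (log10 axis) against the number of CpG dinucleotides in the 250 bases before the start for the 19 chains with 1 RefSeq start, coloured by kind of chain; the dotted line is 1 FPKM. Chains above the line span 0 to 21 CpG and those under it 2 to 12.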

How the data were processed

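RNA sequencing was done on 2 heart libraries, with total RNA taken up in Trizol and libraries made with the Illumina TruSeq v2 kit, per the labels' protocols. The authors deposited 1 table of FPKM values per library. The submitters' processing notes name the tools GSNAP, Cufflinks and Cuffnorm, with mm9 and hg19 as builds, and mm9 was taken as the build of these mouse tables. Not given in the sources used here are the gene annotation, tool versions, whether strand was used and how reads with more than 1 match were treated. Raw counts were not used here, so no count model and no interval for counting error could be given.

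Rows with the same symbol were summed. Detection meant at least 1 FPKM in both libraries. Log2 values were taken after adding 1 FPKM. The 2-fold rule was applied to genes averaging at least 5 FPKM. It was run on simulated data whose changes were set larger than 2-fold, which checks only that the rule works as written. That run does not bear on 2-fold calls in these libraries. The limit for a difference between chains was the 95th percentile of single-gene differences between the libraries. It measures repeatability of the same gene, not errors that differ between genes. Pairs were held to it by the mean of the libraries, and neighbours in the order in both libraries. Transcript lengths and matches to other genes came from GENCODE M21 (GRCm38), matches with BLAST 2.17.0, and promoter windows from RefSeq (GRCm38.p6). Values of 1 chain and of 1 overlapping gene are not reported here. The other chains may be named, and of each further list the 4 highest and up to 3 lowest genes. The chains, pairs and lists were chosen with earlier results of these data known. The scripts ran in Python 3.11.15 with pandas 2.3.3, NumPy 2.4.6 and Matplotlib 3.10.9.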

Additional observations from a re-analysis of the deposited data

How the results depend on the processing

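No paired analysis was possible because both libraries belong to 1 group. The number of chains detected in both libraries was 24 (66.7%, beside 56.3% of protein-coding symbols) at a limit of 0.5 FPKM, 14 (38.9%, beside 38.4%) at 5 FPKM and 28 (77.8%, beside 57.7%) after rescaling as TPM does, against 19, and 19 or 20 in a single library. With 1 FPKM added, or at a mean of 5 FPKM or more, no chain differed 2-fold. Without that filter the count of 0 was set by the added 1 FPKM: with 0.1 FPKM added it was 1, Itgad, at 0.290 FPKM in replicate 2 and 0.0924 FPKM in replicate 1 (3.14-fold), beside 3.59% of all 22757 symbols above 0. The median difference between the libraries stayed below 0, from -0.15 to -0.07, and was -0.15 for chains of 6000 bases or more and -0.13 for shorter ones. The number of pairs beyond the spread was 22 to 24. Itgam against Itgax passed it with 0.1 FPKM added (1.49), with the spread taken at 5 FPKM or more (0.31 against 0.21) and in replicate 2 alone (0.33), and Itgam against Itgal did with 0.1 FPKM added (-0.56). These chains lie under 1 FPKM, lower than the genes behind the spread. With chains under 1 FPKM set to 0, shares became 52.7% for laminin-binding, 32.7% for Arg-Gly-Asp-binding, 5.39% for collagen-binding and 0% for leukocyte alpha chains, 76.8% for Lama4, 8.85% for Lama2, 77.7% for Lamb1, 91.7% for Lamc1, and 0% for Lama1, Lama3, Lamb3 and Lamc3, by construction. No result changed direction. Depth is unknown, so levels far under 1 FPKM may rest on few fragments. The alternatives for transcript length and for Itgad were chosen after seeing the data.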

Other observations

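Of the relatives outside the chains described, Itga2b, the platelet alpha chain that pairs with Itgb3, was at 3.93 FPKM in replicate 2 and 5.76 FPKM in replicate 1. The platelet chemokine Pf4 was at 11.6 FPKM in replicate 2 and 13.9 FPKM in replicate 1. Itgb2l, a relative of the leukocyte beta chain, was listed at 0 in both libraries, and Itgbl1, a secreted integrin-like protein, was at 0.454 ± 0.134 FPKM.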
